A study of Mus musculus with 6 samples.

Results

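The RNA of 10 lysosomal protease genes, 9 cathepsins and legumain, was measured in mouse macrophages kept with dying thymocytes. All 10 (Ctsa, Ctsb, Ctsc, Ctsd, Ctsh, Ctsk, Ctsl, Ctss, Ctsz and Lgmn) were chosen by gene symbol and found among the 38124 genes of the table. The cells were bone-marrow-derived macrophages, grown in culture from marrow precursors of wild type C57BL mice, and their polyadenylated RNA was sequenced. In 3 libraries the macrophages had been kept for 24 hr with thymocytes that dexamethasone, a glucocorticoid drug, had made apoptotic (called exposed here). The labels state the ratio as 1:40 and that these dying cells were taken off before the macrophages were lysed. In the other 3 libraries the macrophages were untreated. The series' design text calls each sample a biological replicate. Macrophages given dexamethasone or healthy thymocytes alone were not analysed here, so their effects cannot be told apart from that of apoptotic cells.

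Cathepsins are made as inactive precursors, sorted to lysosomes mostly by mannose 6-phosphate tags, and activated in the acid lumen, where they break down proteins of engulfed material. They are classed by the residue that attacks the peptide bond. Most are cysteine proteases of the papain family, cathepsin D is an aspartic protease and cathepsin A a serine carboxypeptidase, while legumain is a cysteine protease of another family that cuts after asparagine. In macrophages they digest phagocytosed cells, trim antigens and the invariant chain for MHC class II, and process one another.

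Values were RPKM, which corrects reads for the length of the gene and the depth of the library. Levels of different genes could be set side by side only as far as the lengths used fit the transcripts of these cells. Among the members the recovered lengths ran from 1358 bases for Ctss to 5801 for Ctsc. Orders, sums and shares across genes rest on these lengths. Recovered depth was 19315132 to 25933208 mapped reads per library. The 9 macrophage markers found summed to 20131 to 22475 RPKM in exposed and 15640 to 16375 RPKM in untreated libraries, largely from the lysozyme gene Lyz2. Lyz2 and Mertk were higher in every exposed library, and the other 7 (Csf1r, Cd68, Emr1, Itgam, Fcgr1, Cd14 and Aif1) were lower in every exposed library. The 18 thymocyte and T cell markers summed to 2.42 to 3.18 RPKM in exposed and 5.54 to 5.93 RPKM in untreated libraries, with Cd3e, Cd8b1, Rag2, Ptcra and Themis at 0 in all 6. Cd4 gave most of that sum, at 2.01 to 2.32 RPKM in exposed and 4.14 to 4.46 RPKM in untreated libraries, and Lat and Lck were also lower in every exposed library. Cd3d had 1, 1 and 2 reads in exposed libraries and 0 in each untreated library. The dendritic cell markers summed to at most 0.0792 RPKM in exposed and 0.259 RPKM in untreated libraries, and B cell, erythroid and stromal lists stayed under 3 RPKM. The B cell and stromal sums were lower in every exposed library. The erythroid list was higher, with 13, 21 and 15 reads in exposed libraries, against 0, 1 and 0 in untreated libraries. The neutrophil list reached 88.9 to 95.3 RPKM in exposed and 6.38 to 7.83 RPKM in untreated libraries, almost all of it from the collagenase gene Mmp8, with Ly6g at 0. Of its 8 genes 5 were higher in every exposed library, which were Mmp8, Ngp, Camp, Elane and Retnlg. Ngp had 93, 75 and 80 reads in exposed libraries, against 3, 9 and 3 reads in untreated libraries, and Camp had 12, 9 and 12 reads in exposed libraries, against 0, 0 and 1 in untreated libraries. The part of any of these cells in the results was not tested. In bulk RNA, fewer cells of a type and less RNA per cell cannot be told apart.

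The upstream windows of 4 members are shown because these genes had the 2 largest rises, Ctsd and Lgmn, and the 2 largest falls, Ctsc and Ctsl. RefSeq (GRCm38.p6) gave start-site windows for 8 of the 10 genes, 10 windows in all. Each run below is the 250 bases before the RefSeq start, 5′ to 3′ on the strand of the gene, and capitals mark CACGTG, the core of the E-box that the MiT/TFE factors TFEB, TFE3 and MITF bind at many lysosomal genes.
Ctsd, chr7:142387828-142388077, minus strand: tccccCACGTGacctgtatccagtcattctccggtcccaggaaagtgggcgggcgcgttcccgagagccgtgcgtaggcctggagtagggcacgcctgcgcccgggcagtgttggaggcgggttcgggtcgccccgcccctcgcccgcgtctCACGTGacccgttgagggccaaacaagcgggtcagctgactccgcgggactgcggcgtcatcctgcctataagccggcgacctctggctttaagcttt
Lgmn, chr12:102439729-102439978, minus strand: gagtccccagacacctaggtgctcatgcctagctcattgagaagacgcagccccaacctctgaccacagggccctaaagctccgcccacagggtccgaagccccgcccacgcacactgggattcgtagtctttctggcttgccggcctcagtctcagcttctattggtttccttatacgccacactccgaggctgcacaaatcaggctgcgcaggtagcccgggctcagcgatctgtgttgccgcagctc
Ctsc, chr7:88277835-88278084, plus strand: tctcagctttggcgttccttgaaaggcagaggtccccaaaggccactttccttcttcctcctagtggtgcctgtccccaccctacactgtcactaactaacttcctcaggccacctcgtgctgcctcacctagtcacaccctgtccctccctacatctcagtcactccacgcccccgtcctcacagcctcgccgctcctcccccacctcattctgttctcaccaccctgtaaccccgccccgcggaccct
Ctsl, chr13:64370521-64370770, minus strand: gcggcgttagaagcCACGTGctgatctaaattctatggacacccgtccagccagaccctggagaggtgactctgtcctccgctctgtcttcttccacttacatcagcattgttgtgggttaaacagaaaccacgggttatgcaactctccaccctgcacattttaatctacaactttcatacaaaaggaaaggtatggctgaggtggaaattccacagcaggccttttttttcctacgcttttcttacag

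The Ctsd window held CACGTG 2 times, beginning 245 and 98 bases before the start. The Ctsl window held it 1 time, 236 bases before the start, and the windows of Ctsc and of Lgmn shown held none. A second RefSeq start of Lgmn had it 49 bases upstream and a second start of Ctsa 12 bases upstream. The windows of both these second starts lie wholly inside the deposited span of their gene. The Ctsd window lies partly inside its span, with the match at 98 bases within it, and so does part of the Lgmn window shown. Of 32851 windows of this length in the RefSeq table, 6.02% held CACGTG. All motifs were searched on both strands. The PU box, spelled GAGGAA, lay in windows of Ctsc, Ctsk and Ctss and in 23.3% of all windows. TTCNNNGAA (the GAS element) lay in the Ctsc window and in 7.02% of all, and TGANTCA (the AP-1 element) in 0 member windows and 6.75% of all. CACGTG lay in 4 of the 10 member windows. The genes with CACGTG in a window were 3 that rose (Ctsd, Lgmn and Ctsa) and 1 that fell (Ctsl). Of the genes without it, Ctsz and Ctsk rose and Ctsc and Ctss fell. Ctsb and Ctsh had no window. Whether the motif goes with the direction of change was not tested. These matches are descriptions of letters in a window, and binding was not measured.

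With apoptotic thymocytes, 6 of the 10 protease genes rose (Ctsd, Lgmn, Ctsh, Ctsk, Ctsz and Ctsa), 3 fell (Ctsc, Ctsl and Ctss) and Ctsb did not pass the test (limma on log2(RPKM + 1), adjusted p under 0.05). For background, 18.8% of the 10173 tested genes were called higher and 46% lower, 64.8% in all. The median log2 change of the 10 was 0.33, against -0.13 over all tested genes. All 10 had group ranges that did not overlap, as did 69.6% of tested genes. Both non-cysteine genes rose, whereas the 8 cysteine genes gave 4 rises, 3 falls and 1 that did not pass, with a median of 0.27.

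Which small changes were called, and the balance of higher and lower calls over all genes, depended on how the libraries were scaled. Under median-of-ratios scaling the median of all tested genes moved to -0.00 and the members gave 7 higher and 2 lower. With all columns set to one sum, a scaling added after the data were seen, that median moved to -0.23 and the members gave 6 higher and 3 lower. The share of higher genes among all called genes was 29.0% as deposited, 50.04% under median-of-ratios, 45.4% under upper-quartile and 18.6% under equal-sum scaling. Only the calls of Ctsb and Ctss moved with these scalings among the members, and no member changed direction.

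**Figure D1:**
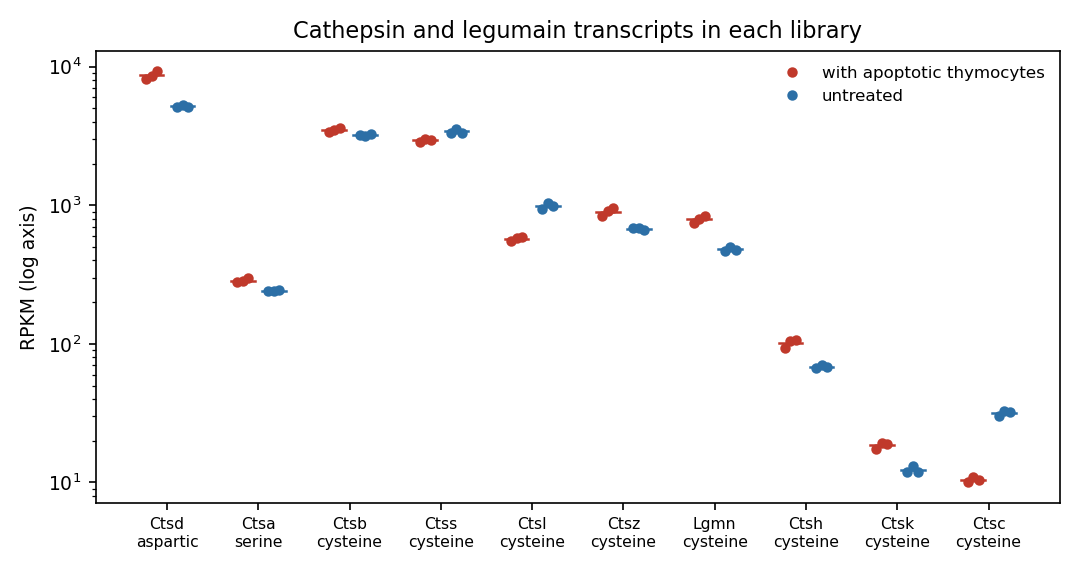
RPKM (log axis) of each protease gene in each library, with exposed libraries in red left of untreated libraries in blue; points are libraries and lines are means of 3. In every gene the 3 exposed points lie wholly above or wholly below the 3 untreated points, from Ctsd at 8130 to 9265 RPKM in exposed libraries down to Ctsc at 10.04 to 10.9 RPKM.

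Ctsd encodes cathepsin D, the main aspartic protease of lysosomes. Its level was 8130, 8593 and 9265 RPKM in exposed libraries, against 5116, 5255 and 5131 RPKM in untreated libraries. Every exposed library was higher, with a ratio of means of 1.68 (log2 change 0.74, SE 0.0706, adjusted p = 1.66e-05). By mean level Ctsd was the 4th highest of all tested genes in exposed and the 7th in untreated macrophages. The gene (ENSMUSG00000007891) lies on chromosome 7, 142371148 to 142388038 on the minus strand of GRCm38. That span reaches further at the 3′ end than the GENCODE M21 gene, whose 3′ end is at 142375911. M21 places a further protein-coding gene, Gm49369, on 808 of the same exon bases and the same strand. Gm49369 is not a gene of the table, and its part in the Ctsd values was not tested.

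Ctsa encodes cathepsin A, which trims peptide ends and also shields β-galactosidase and neuraminidase 1 in a lysosomal complex. Ctsa was at 279, 283 and 297 RPKM in exposed libraries, against 242, 240 and 245 RPKM in untreated libraries. The groups were close but did not overlap, with a ratio of 1.18 (log2 change 0.24, SE 0.0433, adjusted p = 0.00109). Ctsa (ENSMUSG00000017760, chromosome 2, 164832873 to 164841032, plus strand) shares 495 exon bases with Pltp and 324 with Neurl2, both on the opposite strand. Pltp, a phospholipid transfer protein gene, fell to 59.3 ± 4.54 RPKM in exposed libraries, against 195 ± 3.597 RPKM in untreated libraries (SD, n = 3 each). Whether the counting used strand was not given in the sources used here, so the part of these reads in the Ctsa values was not tested.

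Legumain, encoded by Lgmn, activates several cathepsin precursors and cuts antigens and endosomal receptors. Lgmn had 742, 796 and 842 RPKM in exposed libraries, against 470, 497 and 473 RPKM in untreated libraries. All exposed values were higher, and the ratio of means was 1.65 (log2 change 0.72, SE 0.0577, adjusted p = 5.03e-06). Lgmn (ENSMUSG00000021190, chromosome 12, 102394084 to 102439813) had the largest rise among the 8 cysteine genes.

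Among the 7 papain-family genes Ctsz, Ctsh and Ctsk rose. Ctsz encodes cathepsin Z, also called X, a carboxypeptidase. The gene (ENSMUSG00000016256) lies on chromosome 2, 174427493 to 174439039. It stood at 835, 907 and 953 RPKM in exposed libraries, against 683, 683 and 658 RPKM in untreated libraries. The exposed libraries were all higher (log2 change 0.41, SE 0.0582, adjusted p = 0.000246). Ctsh (ENSMUSG00000032359, chromosome 9, 90054152 to 90076089) encodes the aminopeptidase cathepsin H. Ctsh measured 93.5, 105 and 107 RPKM in exposed libraries, against 66.5, 70.6 and 67.5 RPKM in untreated libraries. Its groups were well apart (log2 change 0.57, SE 0.0573, adjusted p = 2.50e-05). Ctsk (ENSMUSG00000028111, chromosome 3, 95499286 to 95509362) encodes cathepsin K, best known as the collagenase of osteoclasts, and it was a low member here. Its level was 17.4, 19.1 and 18.9 RPKM in exposed libraries, against 11.9, 13.1 and 11.9 RPKM in untreated libraries. These values rest on 646 to 669 reads in exposed and 341 to 465 reads in untreated libraries, as recovered with a searched length. The rise was 1.503-fold (log2 change 0.55, SE 0.0567, adjusted p = 2.88e-05).

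Of the genes that fell, Ctsc fell most. It encodes cathepsin C, the dipeptidyl peptidase that activates granule serine proteases of leukocytes. Ctsc was at 10.04, 10.9 and 10.5 RPKM in exposed libraries, against 30.1, 32.7 and 32.1 RPKM in untreated libraries. The exposed level was 0.331 times the untreated one (log2 change -1.51, SE 0.0505, adjusted p = 1.58e-08). Its size ranked 344th among all tested genes. The gene (ENSMUSG00000030560) lies on chromosome 7, 88278085 to 88310888, and no other M21 gene shares its exons.

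Ctsl encodes cathepsin L, a broad endopeptidase that also cuts the invariant chain in thymic epithelium. Ctsl measured 549, 583 and 587 RPKM in exposed libraries, against 948, 1036 and 992 RPKM in untreated libraries. All exposed libraries were far below the untreated ones (log2 change -0.79, SE 0.0537, adjusted p = 1.67e-06). The deposited Ctsl (ENSMUSG00000021477) spans chromosome 13, 64363214 to 64370306, and in M21 it shares 1742 exon bases with an antisense gene, Gm47123, and 395 with a processed pseudogene, Gm49230. The window shown for Ctsl follows a RefSeq start that lies outside the deposited span. Ctss (ENSMUSG00000038642, chromosome 3, 95526786 to 95556403) encodes cathepsin S, the invariant-chain protease of macrophages and dendritic cells, which stays active near neutral pH. Ctss was at 2858, 3002 and 2957 RPKM in exposed libraries, against 3351, 3568 and 3334 RPKM in untreated libraries. The fall was small (log2 change -0.22, SE 0.0585, adjusted p = 0.00993), and it did not pass under median-of-ratios (log2 change -0.07, adjusted p = 0.334) or upper-quartile scaling (-0.10, adjusted p = 0.127), nor with no filter on low genes (adjusted p = 0.124). Under equal-sum scaling its log2 change was -0.33 (adjusted p = 5.34e-05).

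Ctsb (ENSMUSG00000021939, chromosome 14, 63122462 to 63145919) encodes cathepsin B, an endopeptidase that also removes dipeptides from carboxyl ends. Ctsb had 3365, 3498 and 3616 RPKM in exposed libraries, against 3198, 3172 and 3265 RPKM in untreated libraries. The groups did not overlap, yet the log2 change of 0.12 did not pass (95% interval -0.01 to 0.25, adjusted p = 0.0932). It passed as higher without exposed replicate 1 (0.15, adjusted p = 0.0272), under median-of-ratios scaling (0.27, adjusted p = 0.00338), under upper-quartile scaling (0.24, adjusted p = 0.00423) and with limma-voom on recovered reads (0.12, adjusted p = 0.0279). With equal-sum scaling it was 0.01 (adjusted p = 0.856). Ctsb shares 774 exon bases with Fdft1, the squalene synthase gene on the opposite strand, which was at 4.36 ± 0.271 RPKM in exposed and 15.2 ± 0.685 RPKM in untreated libraries (SD, n = 3 each), far below Ctsb itself.

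**Figure D2:**
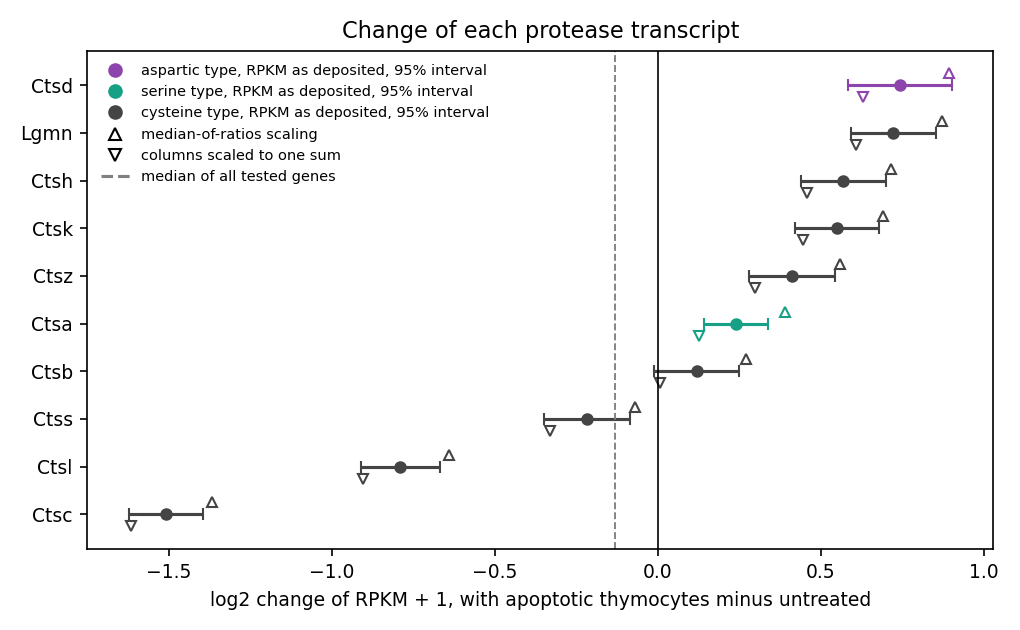
Log2 change of RPKM + 1 for each gene, exposed minus untreated, as deposited (filled points with 95% intervals from limma), under median-of-ratios scaling (upward triangles) and with columns set to one sum (downward triangles, chosen after the data were seen); the dashed line is the median of all tested genes at -0.13. Ctsd, Lgmn, Ctsh, Ctsk, Ctsz and Ctsa stay above 0 and Ctsl and Ctsc below 0 under all 3, whereas Ctsb lies near 0 with one sum and Ctss near 0 under median-of-ratios.

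The cysteine genes moved in both directions, and their summed RPKM as deposited overlapped between groups, whereas that of Ctsd did not. The 8 cysteine genes summed to 8471, 8921 and 9092 RPKM in exposed libraries, against 8758, 9072 and 8834 RPKM in untreated libraries. The difference of those means was -60.1 RPKM. Its sign and the overlap depended on scaling. Under median-of-ratios scaling the cysteine sum was higher in every exposed library, and under equal-sum scaling it was lower in every exposed library. The sums and differences that follow are also as deposited. All 10 genes together summed to 16880, 17796 and 18654 RPKM in exposed libraries, against 14115, 14567 and 14210 RPKM in untreated libraries. The mean difference of that sum was 3479 RPKM, and the mean difference of Ctsd alone was 3495 RPKM. Within the cysteine genes, mean differences of 313 RPKM for Lgmn, 281 for Ctsb and 224 for Ctsz stood beside -479 for Ctss and -418 for Ctsl.

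As a share of the summed protease RPKM, the cysteine type made up 50.2, 50.1 and 48.7% in exposed libraries, against 62.0, 62.3 and 62.2% in untreated libraries. This share does not depend on how whole columns are scaled, but it rests on the gene lengths used. Not all cysteine genes lost share. From untreated to exposed libraries the mean share of Ctss went from 23.9 to 16.6% and that of Ctsb from 22.5 to 19.7%. Ctsl went from 6.93 to 3.23% and Ctsc from 0.221 to 0.0590%. In contrast, Lgmn went from 3.36 to 4.46%, Ctsz from 4.72 to 5.05%, Ctsh from 0.477 to 0.573% and Ctsk from 0.0860 to 0.104%. Ctsd made up 48.7% ± 0.836 of the sum in exposed and 36.1% ± 0.0894 in untreated libraries (SD, n = 3 each). Ctsa, the serine type, was 1.61% ± 0.0366 in exposed and 1.69% ± 0.0427 in untreated libraries, and these overlapped. Shares within one sum are tied to each other, and no test was made on them. The 10 genes took 4.63% ± 0.119 of all RPKM of the table in exposed and 4.03% ± 0.0100 in untreated libraries.

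**Figure D3:**
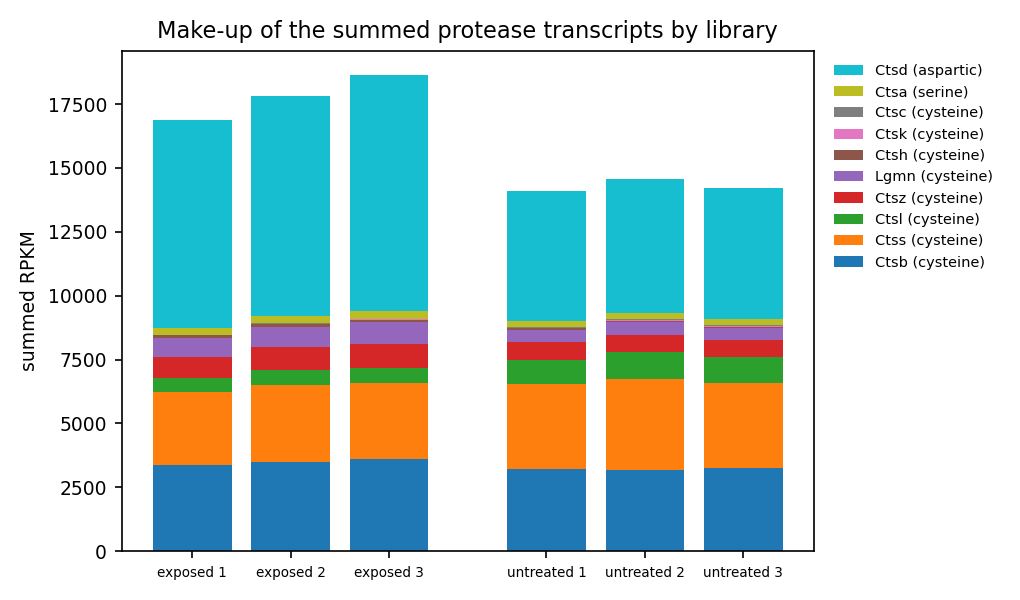
Summed RPKM, as deposited, of the 10 protease genes in each library, stacked by gene, exposed libraries at the left and untreated libraries at the right. The cysteine genes at the bottom reach 8471 to 9092 RPKM in exposed and 8758 to 9072 RPKM in untreated libraries, and the Ctsd block at the top is 8130 to 9265 RPKM in exposed and 5116 to 5255 RPKM in untreated libraries.

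Ratios of Ctsd to single members within a library do not depend on column scaling, and 4 such ratios were computed, to Ctsb, Ctss, Ctsl and Ctsa. Ratios to Lgmn, Ctsz, Ctsh, Ctsk and Ctsc were not computed. The 4 do not stand for all members, since Lgmn rose by nearly the same factor as Ctsd (ratios of means 1.65 and 1.68). Ctsd stood at 2.42, 2.46 and 2.56 times Ctsb in exposed libraries, against 1.60, 1.66 and 1.57 times in untreated libraries. The ratio to Ctsl was 14.8, 14.7 and 15.8 in exposed libraries, against 5.40, 5.07 and 5.17 in untreated libraries. To Ctss it averaged 2.95 ± 0.162 in exposed and 1.51 ± 0.0352 in untreated libraries, and to Ctsa 30.2 ± 1.05 in exposed and 21.3 ± 0.518 in untreated libraries (SD, n = 3 each). None of the 4 overlapped between groups. The exact two-sided permutation test gave p = 0.1 for each, and 0.1 after Benjamini-Hochberg adjustment over the 4, which is the smallest p that 3 libraries against 3 can give.

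The order of levels by RPKM, which rests on the gene lengths used, changed below Ctsd. In exposed macrophages it ran Ctsd, Ctsb, Ctss, Ctsz, Lgmn, Ctsl, Ctsa, Ctsh, Ctsk and Ctsc. In untreated macrophages it ran Ctsd, Ctss, Ctsb, Ctsl, Ctsz, Lgmn, Ctsa, Ctsh, Ctsc and Ctsk. Neighbours were apart in all libraries of their group, except Ctsz and Lgmn in exposed macrophages, whose values overlapped.

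The members also shared a pattern among the exposed libraries. All 10 were lowest in exposed replicate 1, a place held by 42.7% of tested genes, and 7 were highest in exposed replicate 3, a place held by 43.5%. With columns set to one sum, 7 were still lowest there and Ctsa, Ctsc and Ctss were not. The coefficient of variation was 2.50 to 7.14% across exposed and 1.15 to 5.78% across untreated libraries. No library repeated another, since the chi-square of recovered reads, divided by the number of genes, was 4.70 to 16.3 for pairs of exposed and 1.67 to 3.16 for pairs of untreated libraries.

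Genes that act on these proteases were read from lists of the pathway, with a named gene being one of the 3 highest by level or the largest change. Of 14 other cathepsin genes 6 were detected and 2 tested, and neither passed, with adjusted p = 0.432 for Ctso and 0.166 for Ctsf in limma. Ctso averaged 15.99 ± 1.36 RPKM in exposed and 15.3 ± 0.806 RPKM in untreated libraries, Ctsf averaged 5.46 ± 0.377 RPKM in exposed and 5.88 ± 0.0811 RPKM in untreated libraries, and the aspartic Ctse was under 1 RPKM in all 6 (SD, n = 3 each). Of 4 tested inhibitors of cysteine cathepsins, 1 rose, 2 fell and 1 did not pass, while median-of-ratios scaling gave 2 higher and 1 lower and equal-sum scaling 1 and 3. Cst3, the secreted inhibitor cystatin C, fell to 578 ± 39.5 RPKM in exposed libraries, against 682 ± 19.5 RPKM in untreated libraries (log2 change -0.24, adjusted p = 0.00650). Cstb, the cytosolic inhibitor stefin B, was at 699 ± 37.4 RPKM in exposed and 693 ± 36.1 RPKM in untreated libraries (adjusted p = 0.872). The paired genes Ctla2a and Ctla2b, whose products resemble a cathepsin propeptide, moved apart. Ctla2b rose to 141 ± 5.23 RPKM in exposed libraries, against 68.6 ± 2.29 RPKM in untreated libraries, and Ctla2a fell to 7.79 ± 0.434 RPKM in exposed libraries, against 22.5 ± 1.94 RPKM in untreated libraries. These close paralogs can share reads, and both values are uncertain.

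Of 14 genes that sort hydrolases to lysosomes, 5 were called higher, 2 lower and 7 neither (median log2 change 0.08), and with equal-sum scaling 3 were higher and 5 lower. Sort1 encodes sortilin, a sorting receptor that does not need mannose 6-phosphate. Sort1 had 65.6, 67.7 and 70.8 RPKM in exposed libraries, against 12.9, 13.1 and 12.7 RPKM in untreated libraries. That was a 5.27-fold rise (log2 change 2.31, SE 0.0439, adjusted p = 5.55e-10). M6pr, the cation-dependent mannose 6-phosphate receptor gene, fell to 89.6 ± 2.02 RPKM in exposed libraries, against 106 ± 3.13 RPKM in untreated libraries (log2 change -0.25), and under median-of-ratios scaling 0 genes of this list were lower. Scarb2, whose product LIMP-2 carries glucocerebrosidase, rose 1.42-fold (log2 change 0.49), and the retromer gene Vps35 did not pass (-0.12, adjusted p = 0.116).

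Proton pump genes, which acidify the lumen where cathepsins mature, mostly rose by small amounts. Of 18 V-ATPase genes, 11 were called higher, 3 lower and 4 neither (median log2 change 0.16), and with equal-sum scaling 7 rose and 5 fell. Atp6v0c, the membrane ring subunit, rose to 340 ± 19.5 RPKM in exposed libraries, against 265 ± 2.51 RPKM in untreated libraries. Atp6v1g1 rose 1.26-fold and Atp6ap1 1.22-fold. Atp6v0a1, a gene for one form of the membrane a subunit, fell to 28.5 ± 1.58 RPKM in exposed libraries, against 77.6 ± 0.410 RPKM in untreated libraries (log2 change -1.41, adjusted p = 1.58e-08).

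Of 7 genes for MiT/TFE factors and their cytosolic regulators, 3 rose, 3 fell and 1 did not pass. The family had 1 member that rose. Tfec rose 3.34-fold to 22.1 ± 0.993 RPKM in exposed libraries, against 6.60 ± 0.206 RPKM in untreated libraries (log2 change 1.60, adjusted p = 1.03e-08). The other 3 factors, named after their values were seen, were lower. Tfeb was at 6.75 RPKM in exposed and 8.90 RPKM in untreated libraries on average (log2 change -0.35, adjusted p = 0.000192), Tfe3 at 12.2 RPKM in exposed and 15.4 RPKM in untreated libraries (-0.31, adjusted p = 0.000279) and Mitf at 5.64 RPKM in exposed and 12.4 RPKM in untreated libraries (-1.01, adjusted p = 1.15e-06). The regulator genes Fnip2 and Flcn rose (log2 changes 0.48 and 0.15), and Fnip1 did not pass (-0.20, adjusted p = 0.153). These are RNA levels of factors whose activity is set largely by where the protein sits in the cell.

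Most partners of cathepsin S in MHC class II loading fell. Of 8 genes 7 fell and 1 rose under all 3 scalings compared, with a median log2 change of -1.88 as deposited. Cd74, the invariant chain that cathepsins S and L trim, had 68.0, 80.3 and 79.7 RPKM in exposed libraries, against 382, 384 and 390 RPKM in untreated libraries (log2 change -2.33, SE 0.0645, adjusted p = 4.85e-09). H2-Aa fell to 11.97 ± 0.660 RPKM in exposed libraries, against 102 ± 2.12 RPKM in untreated libraries. H2-Eb1 had the largest change of the list on the scale of log2(RPKM + 1), at -3.76. By ratio of means Ciita, named after its values were seen, fell further (0.0347, against 0.0623 for H2-Eb1). Its untreated level was only 1.38 RPKM, so its log2 change was -1.18. Ifi30, the lysosomal thiol reductase GILT, rose to 80.5 ± 3.01 RPKM in exposed libraries, against 67.6 ± 2.67 RPKM in untreated libraries (SD, n = 3 each). Among 5 genes of endosomal nucleic acid receptors, which cathepsins and legumain cut into their active form, and their chaperone, 1 rose, 3 fell and 1 did not pass (1 and 2 under median-of-ratios, 1 and 4 under equal-sum scaling). Tlr7 rose 2.02-fold (log2 change 0.99, adjusted p = 1.11e-06), the chaperone gene Unc93b1 fell by 0.19 on the log2 scale (adjusted p = 0.00664) and Tlr13 did not pass (-0.06, adjusted p = 0.352).

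**Figure D4:**
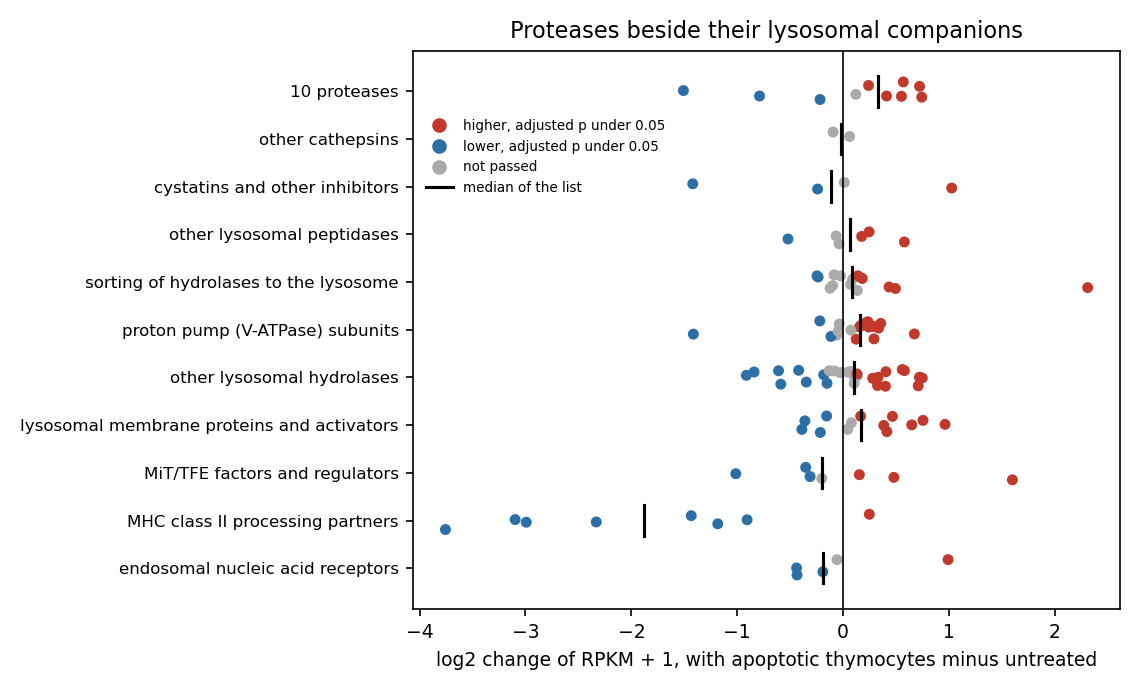
Log2 change of RPKM + 1, exposed minus untreated, of every tested gene in the protease family and in 10 companion lists, with red points higher, blue points lower and grey points not passed in limma (adjusted p under 0.05) and black bars for medians. The proteases have a median of 0.33, the MHC class II partners lie lowest with a median of -1.88, and the other lists have medians of -0.20 to 0.17.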

How the data were processed

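The authors deposited 1 table of RPKM values per gene and library, per the file headers, annotated on GRCm38 (mm10), per the labels. Aligner, counting program, gene models and use of strand are not given in the sources used here. Libraries were stranded TruSeq mRNA libraries read on a NextSeq, per the labels' protocols. Each of the 6 columns matched 1 sample.

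Depth and reads were recovered by searching for values that make RPKM times length times depth whole. All 18737 genes above 0 came out whole within 0.001 reads, for 9371 the length was that of the M21 exons and for 9366 it was searched up to 30000 bases. The search kept the shortest length that made the values whole. For those 9366 genes wholeness is therefore no independent check, least of all where few libraries had reads. Among the members these are Ctsb, Ctsc, Ctsd, Ctsh, Ctsk and Ctsl, whose recovered reads could be too low if the true length is longer. Genes that reached 1 RPKM in 3 or more libraries were fitted as log2(RPKM + 1) with limma 3.58.1 in R 4.3.3 (intensity trend, group as the only term), and p was adjusted by Benjamini-Hochberg over all 10173. Log2 changes are exposed minus untreated and understate those of genes near 1 RPKM. The fit was tested on simulated reads in which only a small part of the genes was changed. The dependence of calls on scaling was not tested there. Ratios, shares and motif searches used Python 3.11.15 and pandas 2.3.3.

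Members, companion lists and tests were chosen with earlier results of these data known. All members are named, and of each list the 3 genes of highest mean RPKM and the largest called change, except that some genes of the hydrolase list are not reported here. Titles share replicate numbers 1 to 3, so a replicate block was an alternative. Other alternatives were pseudocount 0.1, no filter, median-of-ratios and upper-quartile scaling, no trend and leaving out each library. Equal-sum scaling and limma-voom on recovered reads were added after seeing the data.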

Additional observations from a re-analysis of the deposited data

How the results depend on the processing

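Ctsa, Ctsc, Ctsd, Ctsh, Ctsk, Ctsl, Ctsz and Lgmn kept their direction and call under all 14 alternatives run. Ctss did not pass with no filter (log2 change -0.22), under median-of-ratios (-0.068) or under upper-quartile scaling (-0.10). Ctsb passed as higher under median-of-ratios (0.27), upper-quartile scaling (0.24) and limma-voom (0.12), and leaving out 1 library gave 0.10 to 0.15. The no-filter fit tested 18737 genes. Over all genes, median-of-ratios scaling gave 3054 higher and 3049 lower, against 1915 and 4679 as deposited. Leaving out 1 library gave 1630 to 2048 higher and 4045 to 4712 lower, 6 to 7 members higher and 3 lower, and a difference in cysteine share of -12.7 to -12.0 percentage points.

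The shared replicate numbers were not taken as pairs, since deviations of same-numbered libraries correlated at 0.197, -0.0310 and -0.162 over genes. With the replicate block 1904 genes were higher and 4627 lower, and the members stayed at 6 and 3. The lowest member count was 341 reads, for Ctsk, so counting error weighs most there. The part of counting error in the spread between libraries was not tested, and PCR duplicates could not be recognised.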

Other observations

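Of 6 tested lysosomal peptidases outside the cathepsins, 3 rose, 1 fell and 2 did not pass (4 higher and 1 lower under median-of-ratios, 2 and 3 under equal-sum scaling). Napsa, an aspartic protease gene related to Ctsd, rose 1.52-fold to 27.3 ± 1.22 RPKM in exposed libraries, against 17.96 ± 0.595 RPKM in untreated libraries (SD, n = 3 each; limma log2 change 0.58, adjusted p = 7.23e-06). Tpp1, tripeptidyl peptidase 1, rose 1.13-fold, Ggh, which shortens folate polyglutamates, rose 1.19-fold, Prcp, named after its value was seen, was the gene that fell (log2 change -0.52), and the carboxypeptidase gene Scpep1 did not pass (adjusted p = 0.218).

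Of 27 other hydrolases 11 rose, 8 fell and 8 did not pass (16 higher and 6 lower under median-of-ratios, 10 and 11 under equal-sum scaling). Lipa, the acid lipase gene, rose 1.25-fold, and Hexa, a glycosidase gene, was at 640 ± 51.2 RPKM in exposed and 620 ± 14.6 RPKM in untreated libraries (SD, n = 3 each; limma adjusted p = 0.559). Of 13 lysosomal membrane proteins and activators, 7 rose, 4 fell and 2 did not pass (9 and 2 under median-of-ratios, 6 and 4 under equal-sum scaling). Lamp1, a major glycoprotein of the lysosomal membrane, rose 1.69-fold to 1734 ± 112 RPKM in exposed libraries, against 1026 ± 17.2 RPKM in untreated libraries. Psap, whose product is cut by cathepsins into the saposin activators, had the largest change of this list (log2 change 0.96), and Cd68 fell by 0.16 on the log2 scale (limma adjusted p = 0.0227).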
